A study of Mus musculus with 12 samples.

Results

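The genes described here are 36 antioxidant and redox defence genes, chosen by gene name from the 44345 gene names of the deposited count table, and all 36 were among the 16238 genes with enough reads to be tested. They fall by role into 3 superoxide dismutases, catalase with 6 peroxiredoxins and sulfiredoxin, 5 glutathione peroxidases, 5 genes of glutathione supply, 7 of the thioredoxin and glutaredoxin systems, 6 detoxifying enzymes, and the transcription factor NRF2 with its repressor. RNA was sequenced from sciatic dorsal root ganglia (DRG), which hold the cell bodies of the sensory neurons of the sciatic nerve, in 12 samples from C57BL/6 mice aged 5 to 8 weeks. Mice lived for 10 days in standard housing (SH) or in environmental enrichment (EE), which meant larger cages with more cage mates, a running wheel, a hanging tunnel and extra nesting material. They then underwent sciatic nerve axotomy (SNA), a complete cut of the nerve, or a sham operation that only exposed it, with dissection of the ganglia after 24 h. This gave 4 groups of 3 samples: sham surgery after SH (SH Sham), axotomy after SH (SH SNA), sham surgery after EE (EE Sham) and axotomy after EE (EE + SNA). Each sample holds the pooled ganglia of 2 mice, or 6 mice per group. No group carried a transgene or received a test drug. Every mouse had surgery, for which the study's methods give isoflurane anaesthesia with buprenorphine and carprofen for pain relief. By the study's account the EE Sham data came from an earlier dataset, while the labels list them beside the others without a date. In EE Sham against SH Sham, a difference in sequencing run and an effect of housing thus cannot be told apart. In EE + SNA against EE Sham the same holds for sequencing run and the effect of SNA. Such a difference would also enter the comparisons made over both housings.

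Reactive oxygen species are dealt with in steps. Superoxide dismutases turn superoxide into hydrogen peroxide, which catalase, the peroxiredoxins and the glutathione peroxidases then reduce. The peroxiredoxins are recharged by thioredoxin and the glutathione peroxidases by glutathione, both of which draw on NADPH through thioredoxin reductase and glutathione reductase. When oxidised, the protein KEAP1 no longer sends the transcription factor NRF2 (gene Nfe2l2) for degradation, and NRF2 then binds antioxidant response elements in many of these genes, among them Srxn1, Txnrd1, Gclc, Gclm, Hmox1 and Nqo1. NRF2 is thus regulated largely as a protein, which transcript counts do not show. The element resembles the AP-1 site that binds JUN and FOS proteins, and the 2 motifs can share bases.

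The promoter sequences of the genes called after SNA that hold the core of this element are shown first, because they include the member with the largest change. RefSeq windows of 300 bases (250 before and 50 after a start site, GRCm38.p6) were on hand for 30 of the 36 genes. The core TGACNNNGC, on either strand, lay in a window of 6 of these 30 genes (20%), namely Sod1, Prdx1, Srxn1, Gclm, Txnrd1 and Nfe2l2, and in 14% of 27025 genes overall. The variant TGAGNNNGC, added after the sequences had been seen, lay in 5 (16.7%, against 19.8% of all genes), and the 2 forms together in 9 (30%, against 30.8%), so that by this count the redox genes held the element about as often as other genes. The AP-1 site TGANTCA lay in 4 (13.3%, against 8.97% overall), namely Prdx1, Srxn1, Glrx and Gstp1. The 250 bases before the start site follow 5′ to 3′ on the gene's strand, with every match to one of the 3 motifs in capitals.
Srxn1, chr2:152105274-152105523, plus strand: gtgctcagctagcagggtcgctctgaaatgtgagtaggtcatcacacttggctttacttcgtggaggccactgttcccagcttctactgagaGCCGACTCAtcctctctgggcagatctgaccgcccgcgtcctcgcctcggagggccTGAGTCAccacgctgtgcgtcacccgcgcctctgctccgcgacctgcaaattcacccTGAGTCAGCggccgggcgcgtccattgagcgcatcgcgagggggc
Txnrd1, chr10:82858956-82859205, plus strand: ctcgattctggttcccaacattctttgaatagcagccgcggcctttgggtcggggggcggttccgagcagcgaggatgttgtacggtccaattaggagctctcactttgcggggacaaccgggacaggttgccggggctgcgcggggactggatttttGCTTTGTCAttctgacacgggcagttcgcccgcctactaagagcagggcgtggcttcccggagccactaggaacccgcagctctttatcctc
Nfe2l2, chr2:75704664-75704913, minus strand: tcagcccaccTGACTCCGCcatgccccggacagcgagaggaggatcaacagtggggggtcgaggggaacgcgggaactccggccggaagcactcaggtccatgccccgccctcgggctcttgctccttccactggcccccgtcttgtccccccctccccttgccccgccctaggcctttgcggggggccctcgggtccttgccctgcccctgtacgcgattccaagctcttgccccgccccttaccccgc

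In Srxn1 the capitals begin 158, 102 and 45 bases before the start site. The block at 45 bases is an AP-1 site that also reads as TGAGNNNGC, the block at 102 bases is an AP-1 site alone, and the TGACNNNGC match lies 28 bases after the start, outside the printed stretch. In Txnrd1 the core begins 92 bases before a start site inside the gene, and in Nfe2l2 it begins 240 bases before the start. In the GENCODE annotation (GRCm38) the last 8 printed bases of Srxn1 and the last 27 of Txnrd1 belong to a first exon of the gene itself, while 52 bases of the Txnrd1 stretch lie in an exon of Gm38560 and 144 of the Nfe2l2 stretch in an exon of E030042O20Rik, both on the opposite strand. A match is a string of letters and not an observed binding site.

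The libraries held 11343579 to 22871460 reads on genes, and the counts per unit of depth (CPM, scaled by TMM) below refer to these totals. Markers of sensory neurons were above 1 CPM in at least 1 sample for 10 of 10 genes. Of 6 genes of injured sensory neurons, 6 rose after SNA over both housings, with summed levels of 494 to 569 CPM in the 6 sham and 996 to 1186 CPM in the 6 SNA samples. Other cells moved too. Macrophage genes rose in 7 of 11 cases (summed 128 to 165 CPM in sham and 157 to 283 CPM in SNA samples) and genes of myelinating Schwann cells in 4 of 7. Satellite glia genes rose in 3 of 8 cases, fibroblast genes in 2 of 6 and endothelial genes in 1 of 7. Of tested genes, 1 of 9 neutrophil, 1 of 3 lymphocyte, 0 of 5 red blood cell and 0 of 7 skeletal muscle genes rose. Sensory neuron genes fell in 5 of 10 cases (10420 to 11520 against 9970 to 10630 CPM). These counts are after adjustment, where 10.8% of all genes rose and 10.3% fell. EE + SNA replicate 3 stood apart, with the highest sums of macrophage (283 CPM), neutrophil (761 CPM, against 73.8 to 327 CPM elsewhere) and red blood cell genes (633 CPM), and SH SNA replicate 2 held 919 CPM of skeletal muscle genes against at most 154 CPM elsewhere. Of 9 lymphocyte genes, 6 were under 1 CPM in every sample. In such bulk tissue fewer cells of a type and less RNA per cell cannot be told apart, and the part of these cells in the results below was not tested.

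The 36 genes covered a wide range of transcript level. On the FPKM scale, which divides by transcript length and so allows genes to be compared, SH Sham means ran from 0.254 ± 0.064 (SD, n = 3) for Slc7a11, the cystine importer that feeds glutathione synthesis, to 454 ± 17.3 for Txn1, the cytosolic thioredoxin, with a median of 27.3. Sod1, the cytosolic copper and zinc superoxide dismutase, followed Txn1 at 335 ± 19.4 FPKM, and these 2 genes did not overlap in their spread. Srxn1, which encodes the sulfiredoxin that repairs overoxidised peroxiredoxins, came next at 196 ± 6.80 FPKM and Gpx4, the glutathione peroxidase of membrane lipids, at 183 ± 10.98 FPKM, which lie within their spread of each other. Catalase stood at 72.9 ± 1.90 FPKM, and Nfe2l2 at 17.04 ± 0.39 FPKM was above Keap1 at 11.98 ± 0.52 FPKM. The lowest members above Slc7a11 were Gss, the second enzyme of glutathione synthesis, at 3.86 ± 0.25 FPKM, Gpx7 of the endoplasmic reticulum at 3.93 ± 0.13 FPKM and Txnrd2, the mitochondrial thioredoxin reductase, at 4.05 ± 0.17 FPKM. The median coefficient of variation within groups lay between 2.72% and 14.7% per gene, with a median of 5.38%.

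**Figure D1:**
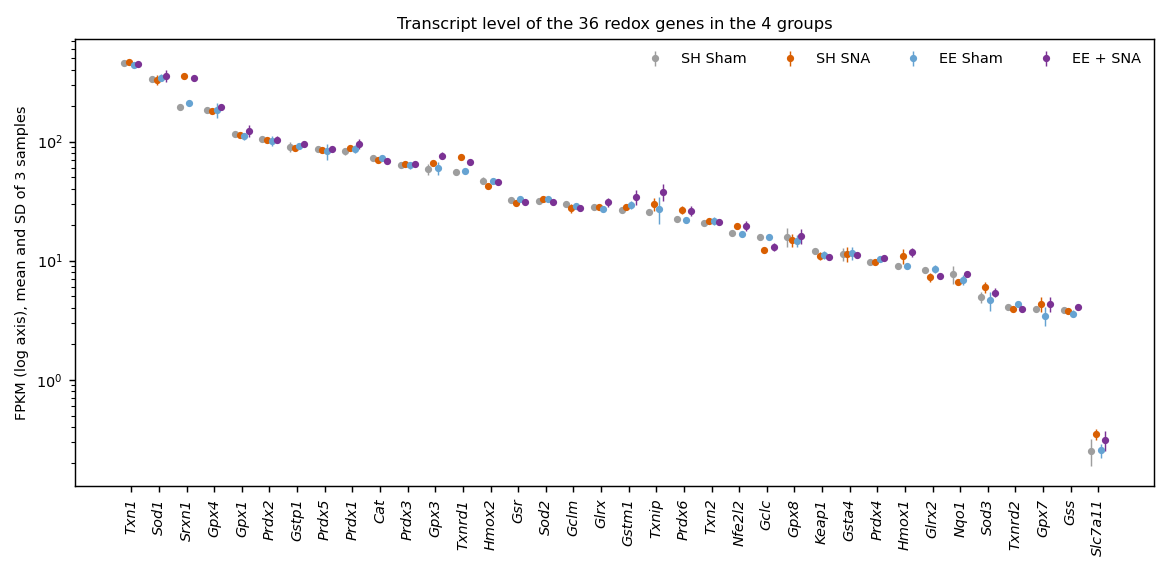
Mean FPKM of the 36 genes in the 4 groups on a log axis, ordered by the SH Sham mean, with SD bars over 3 samples. The levels run from Txn1 (454 FPKM in SH Sham) to Slc7a11 (0.254 FPKM), and among the highest members Srxn1 is the gene whose SNA groups (352 and 339 FPKM) stand clear of its sham groups (196 and 212 FPKM).

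To ask what nerve injury did to these genes, the 6 SNA samples were first compared with the 6 sham samples over both housings with edgeR's quasi-likelihood test, two-sided, with p-values adjusted over all 16238 genes. After adjustment 10 of the 36 genes were called (27.8%), against 21.1% of all genes tested. Of these, 8 were higher after SNA (22.2%, against 10.8% of all genes), namely Srxn1, Txnrd1, Prdx6, Hmox1, Gpx3, Nfe2l2, Txnip and Sod3, and 2 were lower (5.56%, against 10.3%), namely Gclc and Glrx2. The median log2 fold change of the 36 genes was 0.03, beside 0.01 over all genes, and the members ranged from −0.31 to 0.77. In 7 genes the 6 SNA samples did not overlap the 6 sham samples (5 higher and 2 lower), which was so for 11.1% of all genes. Of the 26 genes not called, 21 had a log2 fold change smaller than 0.1 in size. Only 1 had a 95% interval that stayed within 0.1 either way, and 16 had one that stayed within 0.2, so smaller changes remain possible.

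**Figure D2:**
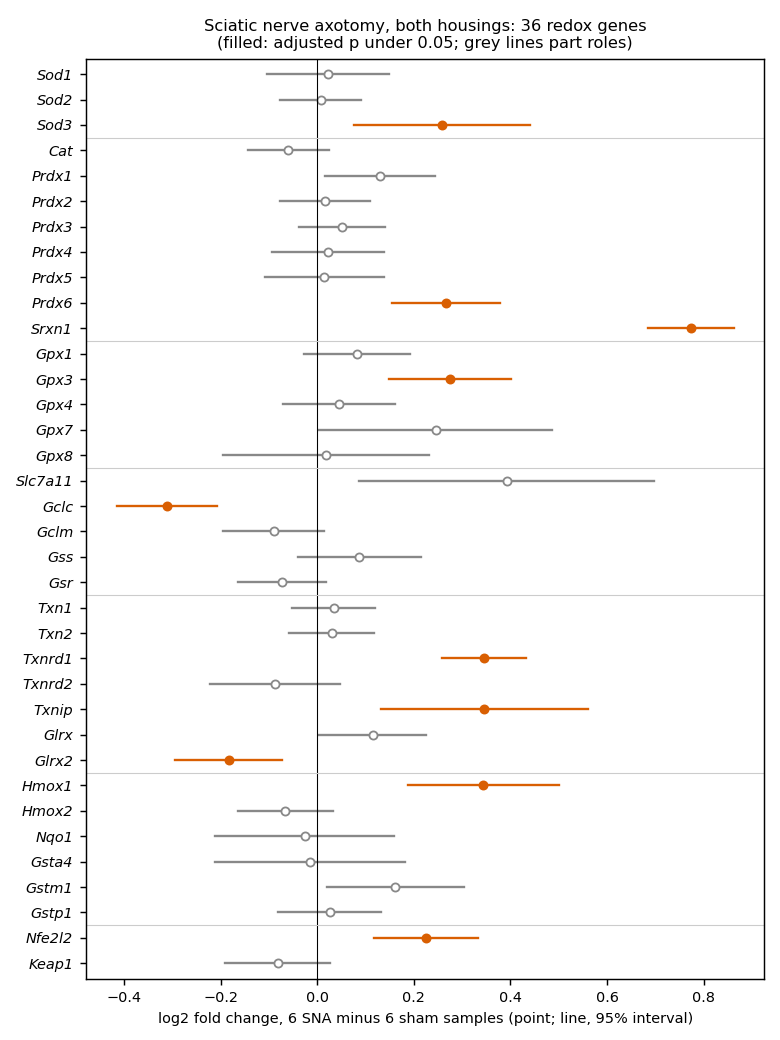
Log2 fold change of each of the 36 genes over both housings (6 SNA minus 6 sham samples, horizontal axis) with 95% intervals, grouped by role, and filled where the adjusted p passed 0.05. Srxn1 lies farthest to the right at 0.77 and Gclc farthest to the left at −0.31, while the intervals of Sod1, Sod2 and Cat include 0.

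Among the superoxide dismutases only the secreted enzyme was called. Sod1 read 196 to 265 CPM over the 12 samples, with a log2 fold change of 0.02 (SE 0.060, 95% interval −0.10 to 0.15), and the mitochondrial Sod2 read 115 to 130 CPM, with 0.01 (SE 0.040, −0.08 to 0.09). Sod2 shares 12.8% of its 100-base stretches with transcripts of other genes. Sod3, which acts in the extracellular matrix, read 18.5, 18.7 and 15.5 CPM in SH Sham, 22.5, 19.2 and 22.9 CPM in SH SNA, 14.2, 19.4 and 16.3 CPM in EE Sham and 19.3, 17.8 and 21.5 CPM in EE + SNA. SNA samples were mostly above sham samples, but the groups overlapped, since EE Sham replicate 2 lay among the SNA samples and EE + SNA replicate 2 among the sham samples. Its log2 fold change was 0.26 (SE 0.086, adjusted p = 0.0428), and the call was lost in 12 of 20 alternative settings, so it is the weakest of the 10.

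Of catalase and the peroxiredoxin system, the repair enzyme Srxn1 and Prdx6 rose, while the common peroxidases stayed within narrow bounds. Srxn1 read 532, 561 and 560 CPM in SH Sham and 585, 590 and 630 CPM in EE Sham, against 1035, 957 and 1004 CPM in SH SNA and 952, 934 and 1024 CPM in EE + SNA. The lowest SNA sample was thus far above the highest sham sample. Its log2 fold change of 0.77 (SE 0.042, 1.71-fold, adjusted p = 2.56e-09) was the largest of the 36 genes, and it stayed called in 20 of 20 alternative settings, at 0.75 to 0.79. Prdx6, a peroxiredoxin that works with glutathione in place of thioredoxin and also acts on phospholipids, read 78.7, 84.1 and 84.8 CPM in SH Sham, 93.7, 95.6 and 106 CPM in SH SNA, 77.4, 83.1 and 80.8 CPM in EE Sham and 95.2, 89.0 and 109 CPM in EE + SNA. These 6 SNA values also lay above all sham values, with a log2 fold change of 0.27 (SE 0.053, adjusted p = 0.00165). EE + SNA replicate 3 was the highest, and without it the log2 fold change was 0.23 (adjusted p = 0.00334).

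None of the other 5 peroxiredoxins was called. Prdx1, the abundant cytosolic peroxiredoxin, read 240 to 283 CPM in sham and 258 to 328 CPM in SNA samples, with a log2 fold change of 0.13 (SE 0.054, 95% interval 0.02 to 0.24) that passed unadjusted (unadjusted p = 0.0276) but not after adjustment (adjusted p = 0.0973). Prdx2, Prdx3, Prdx4 and Prdx5 had log2 fold changes of 0.02, 0.05, 0.02 and 0.01, and the widest of their 95% intervals reached from −0.11 to 0.14. Prdx5 shares 409 exon bases with Trmt112 on the opposite strand. Cat, the peroxisomal catalase, read 181 to 203 CPM in sham and 180 to 189 CPM in SNA samples, with a log2 fold change of −0.06 (95% interval −0.14 to 0.02).

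Gpx3, the secreted plasma form, was the glutathione peroxidase that was called. It read 95.5, 106 and 116 CPM in SH Sham, 124, 124 and 114 CPM in SH SNA, 96.9, 118 and 112 CPM in EE Sham and 138, 130 and 152 CPM in EE + SNA. The EE + SNA samples stood above every other sample, whereas SH SNA overlapped the sham samples. Over both housings the log2 fold change was 0.27 (SE 0.060, adjusted p = 0.0034). Gpx1, the main cytosolic enzyme, and Gpx4 changed by 0.08 and 0.05, with 95% intervals of −0.03 to 0.19 and −0.07 to 0.16, and Gpx8 of the endoplasmic reticulum by 0.02. Gpx7 had a log2 fold change of 0.25 with a wide interval (0.004 to 0.49, adjusted p = 0.14) at 3.61 to 6.59 CPM. Gpx4 shares 25.2% of its 100-base stretches with other transcripts, mostly the pseudogene Gpx4-ps2, and is less certain than the other members of this group.

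Glutathione supply held the clearest fall. Gclc, the catalytic subunit of glutamate-cysteine ligase and so of the step that limits glutathione synthesis, read 54.4, 56.6 and 52.6 CPM in SH Sham, 41.8, 43.2 and 42.6 CPM in SH SNA, 58.2, 50.8 and 54.8 CPM in EE Sham and 48.2, 46.5 and 41.6 CPM in EE + SNA. No SNA sample reached the lowest sham sample. The log2 fold change was −0.31 (SE 0.049, 0.806-fold, adjusted p = 0.000216), and it stayed called in 20 of 20 alternative settings. Its partner Gclm, the modifier subunit, had −0.09 (95% interval −0.20 to 0.01), and Gsr, which reduces oxidised glutathione, had −0.07 (−0.16 to 0.02). Slc7a11 had the second largest point estimate of all members, 0.39 (SE 0.14), but at only 2.35 to 4.38 CPM it did not pass adjustment (adjusted p = 0.0629). Gclc and Srxn1, both known NRF2 targets, thus changed in opposite directions in the same samples.

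In the thioredoxin system the cytosolic reductase rose and its substrate did not detectably change. Txnrd1 read 178, 198 and 195 CPM in SH Sham, 247, 252 and 266 CPM in SH SNA, 196, 190 and 200 CPM in EE Sham and 241, 230 and 233 CPM in EE + SNA. Every SNA sample was above every sham sample, with a log2 fold change of 0.35 (SE 0.041, adjusted p = 1.36e-05). Txn1 and Txn2, the cytosolic and mitochondrial thioredoxins, changed by 0.03 each, with 95% intervals of −0.05 to 0.12 and −0.06 to 0.12, and Txnrd2 by −0.09 (−0.22 to 0.05). Txnip, which binds and inhibits thioredoxin, read 77.6, 78.8 and 77.0 CPM in SH Sham, 84.5, 85.5 and 103 CPM in SH SNA, 61.8, 101 and 86.3 CPM in EE Sham and 123, 93.1 and 131 CPM in EE + SNA. The SH Sham samples were tight and the EE samples spread, so that SNA and sham overlapped. Its log2 fold change was 0.35 (SE 0.10, adjusted p = 0.0219), and the call was lost in 5 of 20 alternative settings, namely both limma settings (adjusted p of up to 0.0597) and without SH SNA replicate 3 (0.0596), EE + SNA replicate 3 (0.0557) or EE + SNA replicate 1 (0.0506). Txnip shares 606 exon bases with Gm15441 on the opposite strand, and reads of the 2 genes cannot be told apart without strand.

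Glrx2, the mitochondrial glutaredoxin, read 43.2, 44.3 and 43.1 CPM in SH Sham, 40.4, 40.6 and 34.7 CPM in SH SNA, 42.2, 44.2 and 48.6 CPM in EE Sham and 37.8, 39.5 and 40.9 CPM in EE + SNA. All 6 SNA values lay below the sham values, and the log2 fold change was −0.18 (SE 0.052, adjusted p = 0.0197). The call was lost without SH SNA replicate 3, EE Sham replicate 3 or EE + SNA replicate 1, with adjusted p-values of up to 0.0631. Cytosolic Glrx had 0.12 (adjusted p = 0.132), so that the point estimates of the 2 glutaredoxins differed in sign, a difference that was not tested.

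Of the detoxifying enzymes Hmox1 was called. This inducible haem oxygenase, which also serves in macrophages that take up red blood cells, read 19.2, 20.7 and 18.4 CPM in SH Sham, 22.9, 21.0 and 27.6 CPM in SH SNA, 19.3, 18.8 and 20.7 CPM in EE Sham and 23.1, 26.6 and 27.2 CPM in EE + SNA. SNA and sham did not overlap, though SH SNA replicate 2 lay just above the highest sham sample. The log2 fold change was 0.34 (SE 0.074, adjusted p = 0.00305), and it was 0.32 (adjusted p = 0.00824) without EE + SNA replicate 3, where macrophage and red blood cell genes were highest. SH SNA replicate 3, with the highest Hmox1 value, had the next highest sum of red blood cell genes (533 CPM, against 246 and 194 CPM in its group). The call held in 20 of 20 alternative settings, at 0.28 to 0.39. The part of blood and macrophage content in this rise was not tested. Its constitutive relative Hmox2 had −0.07 (95% interval −0.16 to 0.03), although 892 of its exon bases overlap Cdip1 on the opposite strand. Nqo1, the quinone reductase often used as an NRF2 readout, had −0.03 (−0.21 to 0.16) at 10.1 to 14.3 CPM. The glutathione transferases Gsta4, Gstm1 and Gstp1 had −0.01, 0.16 and 0.03, of which Gstm1 did not pass adjustment (adjusted p = 0.0973) and Gstp1 shares 25.1% of its 100-base stretches, mostly with Gstp2.

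The regulator itself rose slightly. Nfe2l2 read 64.3, 65.99 and 63.5 CPM in SH Sham, 77.2, 72.6 and 72.3 CPM in SH SNA, 65.2, 59.8 and 65.2 CPM in EE Sham and 72.3, 69.8 and 85.1 CPM in EE + SNA. The groups did not overlap, and the log2 fold change was 0.23 (SE 0.051, adjusted p = 0.00442). Keap1 read 47.8 to 55.8 CPM in sham and 45.7 to 54.1 CPM in SNA samples, with a log2 fold change of −0.08 (95% interval −0.19 to 0.03). Keap1 shares 510 exon bases with Gm16754 on the opposite strand. Of the 6 textbook NRF2 targets named above, Srxn1, Txnrd1 and Hmox1 were higher, Gclc was lower, and Gclm and Nqo1 were not called.

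**Figure D3:**
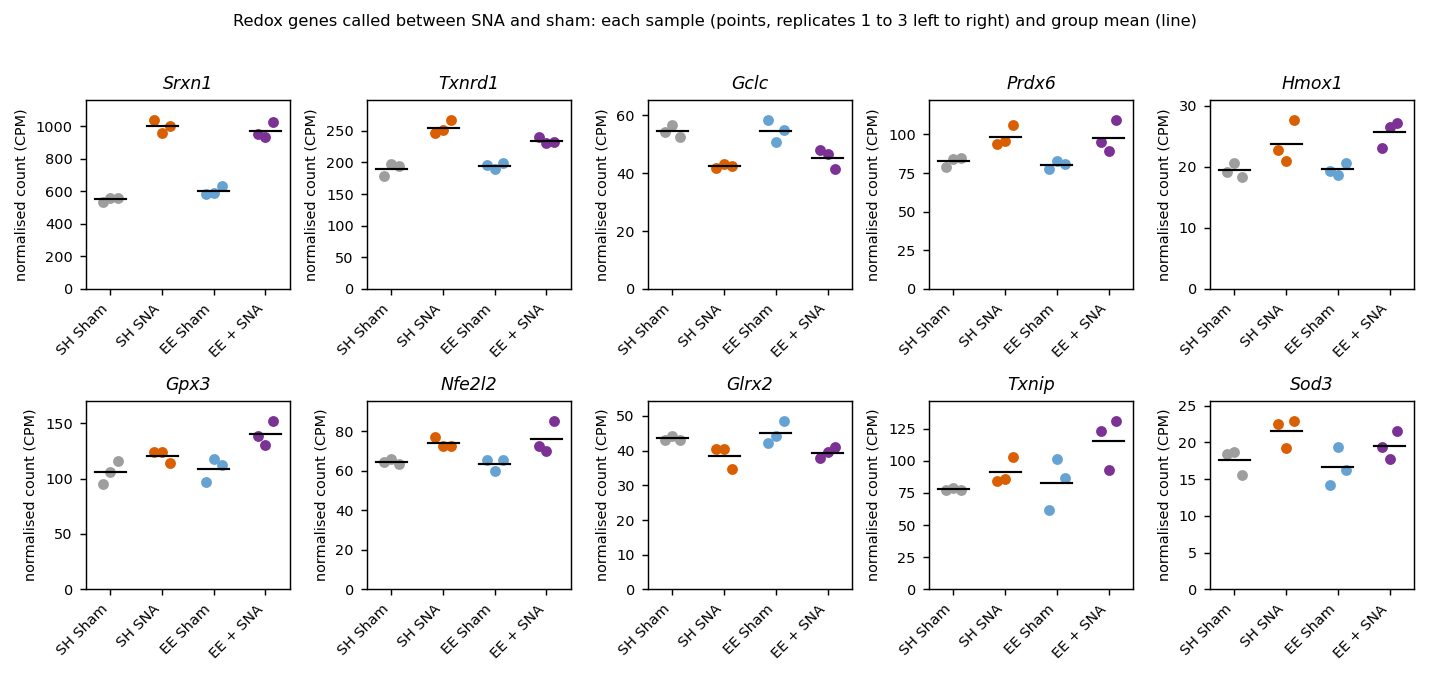
Normalised count (CPM, axes from 0) of the 10 genes called between SNA and sham, with each sample as a point and the group mean as a line. Srxn1 separates SNA (934 to 1035 CPM) from sham samples (532 to 630 CPM) most widely, Gclc and Glrx2 are lower after SNA, and Txnip, Gpx3 and Sod3 overlap.

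The effect of SNA was then compared between housings, in 2 comparisons that share no sample. In SH, 5 of the 36 genes were called (13.9%, against 11.2% of all genes), with Srxn1 at 0.86 (SE 0.059, adjusted p = 3.5e-06), Txnrd1 at 0.42 (SE 0.059, 0.000605), Gclc at −0.36 (SE 0.063, 0.00272), Prdx6 at 0.26 (SE 0.063, 0.0193) and Nfe2l2 at 0.20 (SE 0.056, 0.0405). Nfe2l2 lost this call in 12 of 15 alternative settings, among them DESeq2 (adjusted p = 0.082) and each of the 6 samples left out (up to 0.162), and Prdx6 in 4 of 15, with both limma settings and without SH Sham replicate 1 or SH SNA replicate 3 (up to 0.0736). In EE, 4 were called (11.1%, against 4.77% of all genes), with Srxn1 at 0.69 (SE 0.065, adjusted p = 0.000174), Txnrd1 at 0.27 (SE 0.061, 0.0286), Hmox1 at 0.39 (SE 0.094, 0.0338) and Gpx3 at 0.36 (SE 0.086, 0.0348). Only Srxn1 and Txnrd1 were called in both. In EE, Srxn1 lost its call in 0 of 15 alternative settings. Txnrd1 lost it in 5, each with a sample left out (adjusted p of up to 0.141), Hmox1 in 7 and Gpx3 in 6. Without EE + SNA replicate 3, or without EE Sham replicate 1 or 3, only 1 gene was called in EE, and 2 when EE + SNA replicate 1 was omitted. All 10 genes called over both housings pointed the same way in each housing, which was so for 99.9% of all genes called in that fit and so follows largely from the call itself. Of the 26 others 15 did (57.7%), beside 67.4% of all genes not called.

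**Figure D4:**
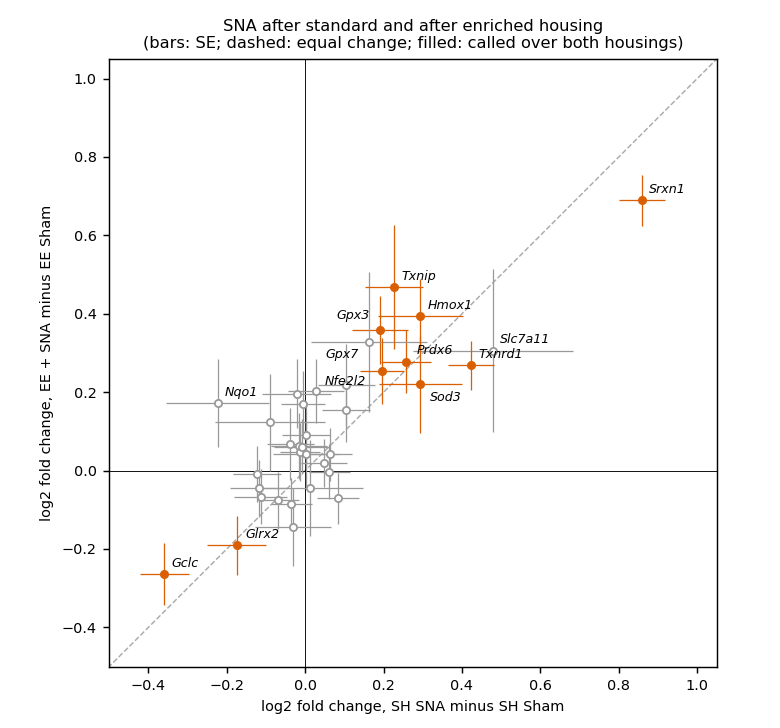
Log2 fold change after SNA in SH (horizontal axis) against that in EE (vertical axis) for the 36 genes, with SE bars, and filled points for genes called over both housings. Srxn1 (0.86 and 0.69) lies apart at the upper right and Gclc (−0.36 and −0.26) at the lower left, while Nqo1 (−0.22 and 0.17) lies on opposite sides of 0.

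Whether the response to SNA differed with housing was tested as an interaction over the 12 samples. After adjustment 0 of the 36 genes passed, as did 0 of 16238 genes (0%). At an unadjusted p of 0.05, as the study used, 1 gene passed (2.78%, against 2.61% of all genes). That gene was Nqo1, with 14.3, 11.4 and 10.2 CPM in SH Sham, 10.1, 10.1 and 10.6 CPM in SH SNA, 10.2, 10.3 and 11.9 CPM in EE Sham and 12.6, 12.3 and 11.5 CPM in EE + SNA, and an interaction of 0.40 (SE 0.17, unadjusted p = 0.0374 by edgeR, adjusted p = 1). SH Sham replicate 1 held the highest value, and without it the interaction was 0.24 (unadjusted p = 0.143). The interactions of Srxn1 at −0.17 (95% interval −0.35 to 0.01) and Txnrd1 at −0.16 (−0.33 to 0.02) pointed to a smaller rise after EE, but their intervals include 0.

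Enrichment without injury was asked of EE Sham against SH Sham. After adjustment 0 of the 36 genes passed, and 1 of 16238 genes did (0.00616%). Unadjusted, 1 member passed (2.78%, against 2.96% of all genes), and 2 did with the replicate number as a block. The member called without the block was Gstm1, a glutathione transferase of the mu class, with 37.3, 35.4 and 38.2 CPM in SH Sham and 39.0, 44.0 and 41.3 CPM in EE Sham, a log2 fold change of 0.16 (SE 0.076, unadjusted p = 0.0459 by edgeR, adjusted p = 1). The 2 groups did not overlap, as in 7.61% of all genes, and Gstm1 shares 5.86% of its 100-base stretches with other genes of its family. Over all members the log2 fold change lay between −0.18 and 0.16 with a median of 0.01. Srxn1 was higher in each EE Sham sample than in each SH Sham sample, at 0.13 (SE 0.065, 95% interval −0.01 to 0.26), without passing the threshold, and it was the second gene to pass unadjusted with the block (unadjusted p = 0.0489).

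Among injured ganglia, EE + SNA was set against SH SNA, the comparison that asks what enrichment adds to axotomy. No gene passed after adjustment, neither of the 36 nor of all 16238 (0%). Unadjusted, 5 of the 36 passed (13.9%, against 4.1% of all genes). Gpx3 was higher by 0.21 (SE 0.067, unadjusted p = 0.00856 by edgeR), Txnip by 0.34 (SE 0.12, unadjusted p = 0.0148), Gstm1 by 0.28 (SE 0.11, unadjusted p = 0.0207) and Nqo1 by 0.24 (SE 0.10, unadjusted p = 0.0347), while Txnrd1 was lower, at −0.12 (SE 0.054, unadjusted p = 0.0454), and each had an adjusted p of 0.989. Gstm1 read 40.5, 37.4 and 41.4 CPM in SH SNA and 51.4, 40.3 and 54.2 CPM in EE + SNA, so that these groups overlapped. In 6 of the 36 genes these groups did not overlap, which was so for 10.4% of all genes, with Gpx3, Nqo1, Prdx4 and Gpx4 higher and Txnrd1 and Sod2 lower in EE + SNA. Without EE + SNA replicate 3 the number fell to 2, Gpx3 (0.15, unadjusted p = 0.0297) and Nqo1 (0.28, unadjusted p = 0.0284), and Txnip then had 0.24 (unadjusted p = 0.0602) and Gstm1 0.19 (unadjusted p = 0.0861).

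**Figure D5:**
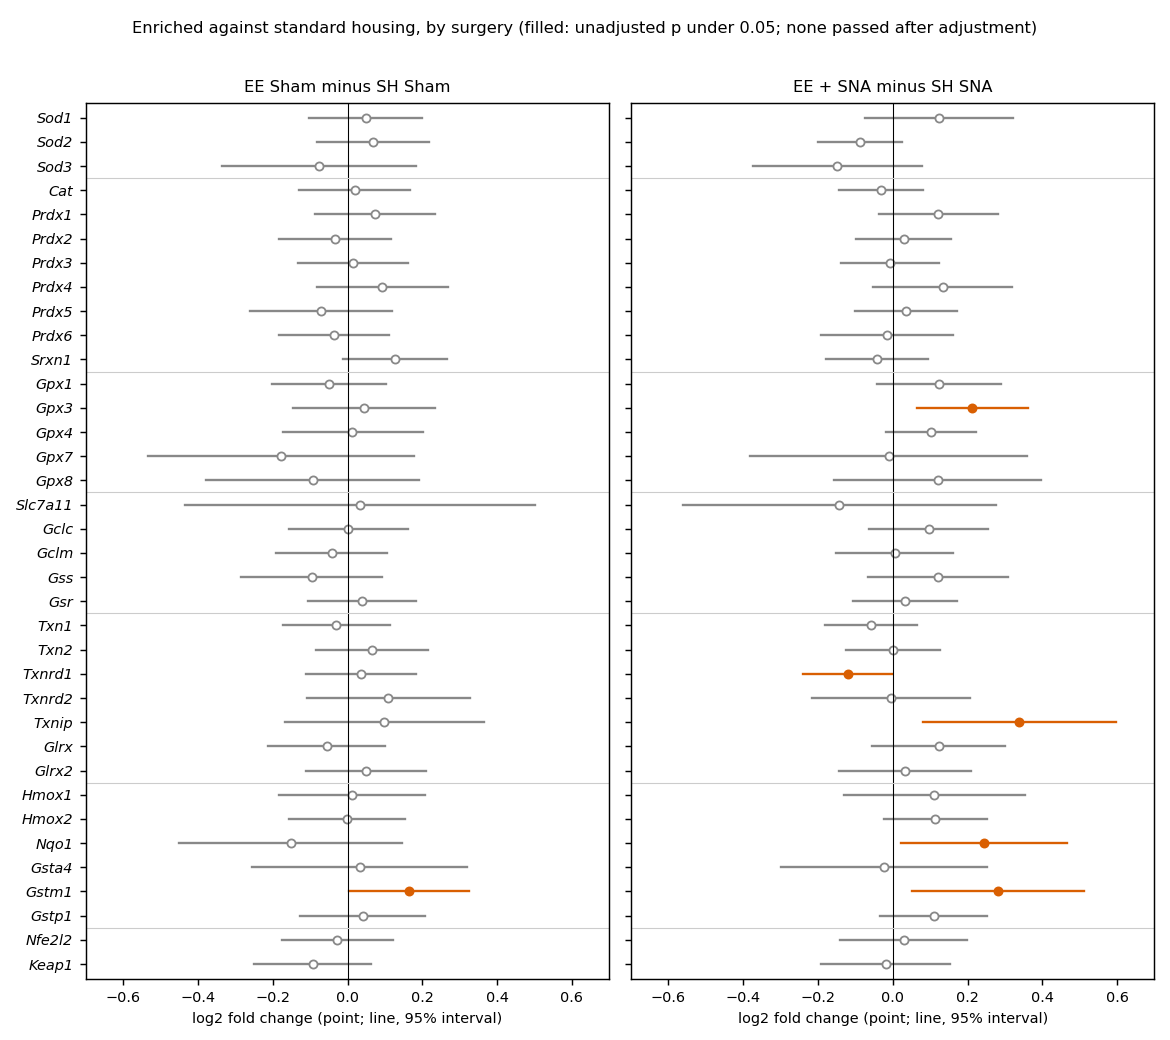
Log2 fold change of the 36 genes between EE and SH after sham surgery (left) and after SNA (right), with 95% intervals, grouped by role, and filled where the unadjusted p passed 0.05. Only Gstm1 is filled on the left, and Gpx3, Txnrd1, Txnip, Nqo1 and Gstm1 on the right, where Txnrd1 is the one below 0.

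Against SH Sham, the control that the study used for every condition, EE + SNA called 7 of the 36 genes (19.4%, against 12.4% of all genes). Srxn1 stood at 0.82 (SE 0.060, adjusted p = 6.34e-06), Txnip at 0.56 (SE 0.10, 0.00371), Hmox1 at 0.41 (SE 0.090, 0.0114), Gpx3 at 0.40 (SE 0.081, 0.00649), Gstm1 at 0.38 (SE 0.099, 0.0243), Txnrd1 at 0.30 (SE 0.061, 0.00695) and Gclc at −0.26 (SE 0.070, 0.0281). Without EE + SNA replicate 3 Gstm1 had 0.29 (adjusted p = 0.0729) and Gclc −0.21 (adjusted p = 0.0838). Gstm1 was also lost with either limma setting and when EE + SNA replicate 1 or any of the 3 SH Sham samples was omitted, Gclc also without SH Sham replicate 1 or 2, and the other 5 calls held in 15 of 15 alternative settings. This comparison shares its SH Sham samples with SH SNA against SH Sham and its EE + SNA samples with EE + SNA against EE Sham.

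Further redox genes, 97 in 7 lists written by role, give the surroundings of these members. Of the 85 that had enough reads, 22 rose and 4 fell after SNA over both housings, with a median log2 fold change of 0.10, and the counts of each list stand beside 10.8% of all genes that rose and 10.3% that fell. Genes of glutathione supply and turnover other than the members rose in 5 of 11 cases and fell in 0, among them Chac1, which breaks glutathione down, at 0.98 (SE 0.088, adjusted p = 7.47e-07), from 7.51 to 10.97 CPM in sham to 15.7 to 20.3 CPM in SNA samples. The list also held risen transporters of amino acids, namely Slc3a2 at 0.30 (adjusted p = 0.00106), Slc1a4 at 0.32 (0.000223) and Slc1a5 at 0.25 (0.0117), of which Slc3a2 is the partner chain of Slc7a11. Genes that supply NADPH rose in 4 of 9 cases and fell in 0, and genes of iron and metal binding in 4 of 8 and 0. The latter included the metallothioneins Mt2 at 0.86 (SE 0.17, adjusted p = 0.00166) and Mt1 at 0.77 (SE 0.15, 0.00175). Other thiol repair genes rose in 3 of 15 cases and fell in 1 (Sesn3, a sestrin, at −0.28, SE 0.087, adjusted p = 0.0297, a call lost in 6 of 20 alternative settings, each without 1 sample, at adjusted p of up to 0.0785). Partners and further targets of NRF2 rose in 3 of 16 cases and fell in 1. The risen ones included Bach1, a repressor that competes with NRF2 for the same element, at 0.64 (adjusted p = 7.2e-06) and Mafk, a small MAF protein that pairs with either, at 0.64 (2.2e-05). Other glutathione transferases and peroxidases rose in 1 of 14 tested cases.

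Of the 12 tested enzymes and subunits that make reactive oxygen species, 2 rose and 2 fell, again beside 10.8% and 10.3% of all genes. The rises were Xdh, xanthine dehydrogenase, at 0.49 (SE 0.12, adjusted p = 0.00921) and Rac1, a small GTPase of NADPH oxidase complexes, at 0.17 (SE 0.043, 0.0111). The falls were Noxo1, an organiser of NOX1, at −0.61 (SE 0.19, adjusted p = 0.0292) and Aox1, an aldehyde oxidase, at −0.27 (SE 0.051, 0.000965). Noxo1 read only 0.841 to 2.01 CPM, and its call was lost in 7 of 20 alternative settings, with DESeq2 (adjusted p = 0.117), without the filter, and without SH Sham replicate 1 or 2, SH SNA replicate 1, EE Sham replicate 2 or EE + SNA replicate 2. Of the NADPH oxidase NOX2, whose role in these ganglia the study examined, 4 dedicated subunit genes are given here, at low levels of 0.201 to 17.3 CPM. Over both housings none of these 4 passed adjustment, with Cyba at 0.35 (adjusted p = 0.146), Cybb at 0.42 (0.275), Ncf1 at 0.47 (0.243) and Ncf4 at 0.90 (0.0845), and Ncf4 alone passed unadjusted (unadjusted p = 0.0226 by edgeR). Cybb, the catalytic subunit, read 5.05, 7.32 and 4.48 CPM in SH Sham, 8.11, 5.24 and 9.71 CPM in SH SNA, 5.69, 8.58 and 7.31 CPM in EE Sham and 4.81, 6.35 and 17.3 CPM in EE + SNA. In all 4 genes EE + SNA replicate 3 was the highest sample, as it was for macrophage and neutrophil genes. Without it the log2 fold changes over both housings were 0.19, 0.06, 0.06 and 0.60 in the order above. The study reported a rise of the NOX2 subunit genes after EE + SNA with SH Sham as control, a comparison that these pooled values do not address. It also reported higher subunit transcripts by RT-PCR, and higher subunit protein by immunoblotting and by staining of DRG neurons. Those measurements were not examined here. In EE + SNA against SH Sham, 7 of the 12 tested enzymes and subunits were higher and 2 lower at an unadjusted p under 0.05. Of all genes, 14.8% were higher and 12.3% lower by that rule. After adjustment 2 were higher and 1 lower, beside 6.91% and 5.53% of all genes. These counts cover the whole list and are not given for single NOX2 genes.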

How the data were processed

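The authors sequenced polyadenylated RNA (TruSeq kit, Illumina HiSeq, paired-end), aligned it to mm10 with TopHat2 2.0.12 and Bowtie2 2.2.3 and counted reads per gene name with HTSeq (0.6.0 in the submitters' processing notes). The strand setting is not given in the sources used here. The deposited count table holds raw read counts of 44345 gene names. A further 5 lines give reads that HTSeq left out, and 46.7% to 47.6% of reads were in its class of reads assigned to no gene. Where those reads lay was not examined. The deposited FPKM table, which the authors computed by dividing by length and library total, was used only for levels between genes and in 2 alternatives.

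The 36 genes, the further lists and the markers were chosen with earlier results of these data known. Counts were scaled by TMM and filtered by filterByExpr (10 counts, total of 15) in edgeR 4.0.16 (R 4.3.3), and tested by the quasi-likelihood F test, two-sided, with Benjamini-Hochberg adjustment over 16238 genes. The pooled effect of SNA and the interaction used all 12 samples, and each other comparison its 6 samples. A gene was called at an adjusted p under 0.05, and, as in the study, also at an unadjusted p under 0.05 where few genes passed. SE is the absolute log2 fold change divided by the root of F. On data simulated for the pooled comparison, the test recovered 41 of 64 genes changed by 0.5 and 61 of 66 changed by 1 on the log2 scale, at 16087 genes tested. The text names the members called after SNA with every sample, those called unadjusted between housings, Nfe2l2, Keap1, Sod1, Sod2 and Cat, the 3 further redox genes with the largest rise and fall, and 4 NOX2 genes, while 1 gene that this rule names is not reported here. Slc3a2, Slc1a4, Slc1a5, Bach1, Mafk, Rac1, Xdh and members not called were named after their values were seen.

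No main test paired samples by replicate number, which entered only as the block among the alternatives. In EE Sham against SH Sham, deviations from the group means correlated positively for equal numbers (r = 0.331, 0.137 and 0.111). SH Sham replicate 3 with EE Sham replicate 2 had r = 0.194, above 0.137 and 0.111, while the other unequal numbers gave negative values. These correlations thus do not establish pairing. Neither the labels nor the methods describe such pairing. In each other comparison at least 1 pair with equal numbers had r below 0.1. Samples are pools of separate mice per the study's methods. Exon overlaps and shared 100-base stretches were taken from GENCODE vM21 (GRCm38), and promoter windows from RefSeq.

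Alternatives were edgeR's likelihood ratio test, DESeq2 1.42.0, scaling by library size, no filter (26122 genes), the replicate block, a minimum of 10 counts per sample (14736 genes), a joint fit of the 12 samples, limma 3.58.1 on log2(FPKM + 1) and log2(FPKM + 0.1), and each sample left out. Figures were drawn with Matplotlib 3.10.9.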

Additional observations from a re-analysis of the deposited data

Results flagged for a closer look

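The effect of SNA on Nqo1 differed between housings by 0.395 on the log2 scale (EE minus SH, interaction test of edgeR, unadjusted p = 0.0374, adjusted p = 1), with −0.22 in SH and 0.17 in EE, neither of which passed on its own. All 3 EE + SNA samples were above the 3 SH SNA samples, while both sham groups overlapped these. Without SH Sham replicate 1, the highest of the 12 samples, the interaction was 0.241 (unadjusted p = 0.143).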

How the results depend on the processing

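Over both housings the number of redox genes called after adjustment stayed within 1.5 times the 10 given under every alternative, as did the 7 of EE + SNA against SH Sham. For SNA in SH it was 5, and 3 with limma on log2(FPKM + 1) or log2(FPKM + 0.1), and 3 to 6 when a sample was left out. For SNA in EE it was 4, and 8 without the filter, 7 with all 12 samples in 1 fit and 2 with either limma setting, and 1 to 5 when a sample was left out. Between housings no member passed adjustment under any alternative. Unadjusted, EE Sham against SH Sham called 1 gene, and 0 with the likelihood ratio test, library size only, no filter or either limma setting, 2 with the replicate block and 0 to 3 when a sample was left out. EE + SNA against SH SNA called 5, and 3 with the likelihood ratio test, no filter or the replicate block and 1 to 5 when a sample was left out. The interaction called 1, and 0 with the likelihood ratio test, 2 with no filter, the replicate block or either limma setting and 0 to 4 when a sample was left out. Of single members, the replicate block ended the call of Sod3 over both housings (adjusted p = 0.0558) and those of Txnrd1 (unadjusted p = 0.0578) and Nqo1 (unadjusted p = 0.0506) in EE + SNA against SH SNA and added Srxn1 in EE Sham against SH Sham (unadjusted p = 0.0489) and in the interaction (unadjusted p = 0.0372). In these comparisons it changed no other unadjusted call of a member, and no other adjusted call in any comparison. The cause of these moves was not tested, apart from fewer samples where some were left out.

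Of 1256 values under the alternatives, all but a few motif counts belonged to single genes. Among them 1082 kept direction and side of the threshold or, for motif counts, stayed within 1.5 times the main count. A further 120 were no longer called and 38 became called. The last 16 changed sign, all of them in uncalled genes near 0. Leaving out a sample, Sod1 ranged from −0.027 to 0.052 over both housings, −0.098 to 0.043 in SH and −0.039 to 0.112 in EE, Sod2 from −0.014 to 0.019 over both housings and −0.037 to 0.014 in EE + SNA against SH Sham, and Keap1 from −0.077 to 0.004 in EE. Sod2 over both housings was also −0.004 with library size only and −0.003 with either limma setting. Over both housings the widest 95% intervals were those of Slc7a11 and Gpx7, both read at under 7 CPM in every sample.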
